A study of Homo sapiens with 6 samples.

Results

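The genes of the mitochondrial ribosome were compared between 2 groups of cultured human thyroid cancer cells. Members were the protein-coding rows of the count table whose symbol was MRPL or MRPS followed by a number and at most 1 letter, which gave 78 of 22681 genes. TPC-1 is a cell line from papillary thyroid carcinoma, and the derivative used here had been made resistant to lenvatinib, an inhibitor of receptor tyrosine kinases. The 3 control libraries carried a non-targeting hairpin (shNC) and the other 3 carried a hairpin against the keratin gene KRT15 (shKRT15), both introduced with a liposomal reagent. Cells of both groups were kept in 10 µM lenvatinib, and neither drug-sensitive nor untreated cultures stood beside them. The libraries are called biological replicates without mention of separate transfections, and the spread that p-values rest on here, that of these 6 libraries, may be technical.

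Mitochondria carry a small genome of their own and translate its mRNAs, which encode core subunits of the respiratory chain and the ATP synthase, on a dedicated ribosome. The RNAs of that ribosome are encoded in the mitochondrial genome, but its proteins are encoded in the nucleus, made in the cytosol and imported. A small subunit (proteins named MRPS) decodes the mRNA and a large subunit (MRPL) joins the amino acids and releases the chain through an exit tunnel. Many of the proteins descend from bacterial ribosomal proteins and others were acquired by mitochondria.

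Libraries held 36286059 to 36808695 counted reads in shNC and 39868231 to 41343780 in shKRT15. KRT15 itself was at 28.7, 31.9 and 36.2 CPM (each count scaled to library size with TMM factors) in shNC and at 25.0, 24.3 and 24.9 CPM in shKRT15. Its log2 fold change, here and throughout shKRT15 over shNC, was -0.38 ± 0.10 (SE), with an adjusted p of 0.00465 by the edgeR quasi-likelihood test with Benjamini-Hochberg adjustment over all 14356 genes tested. Adjusted p-values and calls below come from that fit, with 3 libraries a group and a threshold of 0.05. Rises and falls given as a number are on that log2 scale. All 15 proliferation genes of a marker list were called higher, and their summed level was 1031 to 1086 CPM in shNC and 2447 to 2481 CPM in shKRT15. Of 4 tested thyroid markers 0 were called, and PAX8 was abundant (375.3 and 410.4 CPM as means of shNC and shKRT15). The others, by the same means, were FOXE1 (14.6 and 15.3 CPM), HHEX (8.64 and 7.85 CPM) and TG (1.58 and 0.808 CPM). Of 3 tested epithelial markers the keratin KRT18 (115.9 and 214.6 CPM) was called higher. The keratins KRT8 (12.9 and 14.9 CPM) and KRT7 (23.4 and 22.9 CPM) were not called. NKX2-1, TSHR, KRT19, EPCAM and CDH1 were at or near 0. Of 4 tested fibroblast markers 3 were lower and 1 higher, with a summed level of 21.87 to 26.27 CPM in shNC and 8.309 to 9.72 CPM in shKRT15. Of 3 tested leukocyte markers 2 were lower, CD68 (87.9 and 59.6 CPM as means of shNC and shKRT15) and LYZ (under 1 CPM in every library). The other, LAPTM5 (115.8 and 109.6 CPM), was the most abundant and was not called. PTPRC, CD3E and CD14 stayed under 1 CPM in every library. The part of proliferation or of other cells in the results below was not tested. In bulk libraries, fewer cells of a type and less RNA per cell cannot be told apart.

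Most mitochondrial ribosomal protein genes differed little between the groups. Of 78 members 77 could be tested, and 24 of these (31.2%) were called, against 45.0% of all genes tested. The called members were 17 higher (22.1%, against 22.1% of all genes) and 7 lower (9.09%, against 23.0%). In this fit with all 6 libraries the share called higher was that of the whole transcriptome, and the share called lower was below it. Without shNC replicate 3 the shares called higher were 35.1% of members and 22.4% of all genes. Median log2 fold change was 0.08 over the members and -0.001 over all genes. Fold changes were above 0 for 50 members and below 0 for 27. They ran from -0.53 to 0.67, so that 0 members reached 2-fold, compared with 10.8% of all genes. The median absolute log2 fold change was 0.17 over the members and 0.31 over all genes, and 4 members passed 0.5 in either direction, compared with 31.3% of all genes.

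**Figure D1:**
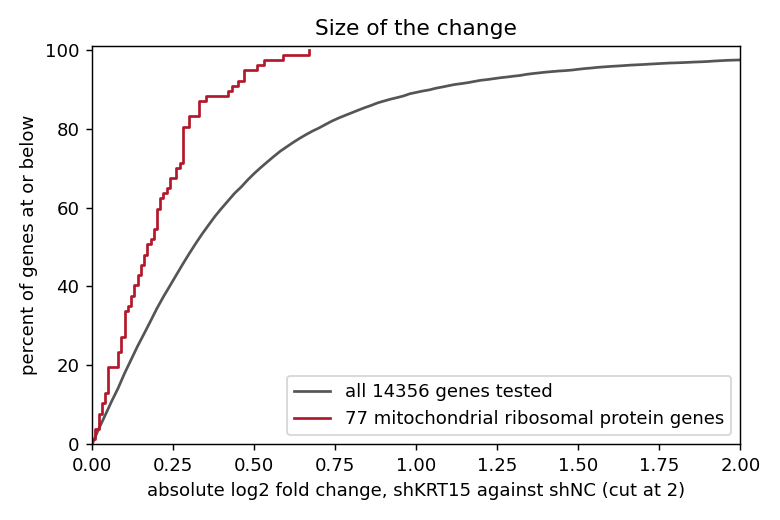
Cumulative percent of genes (vertical axis) at or below each absolute log2 fold change between shKRT15 and shNC (horizontal axis, shown up to 2) for the 77 tested mitochondrial ribosomal protein genes (red) and all 14356 genes tested (grey). The red line reaches 100% at 0.67, while 10.8% of all genes lie at 1 or beyond.

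For the 53 members that were not called, the 95% confidence interval bounds how far they could have moved. It lay within 0.5 of 0 on the log2 scale for 50 of them. The exceptions were MRPS17 (-0.52 to -0.04), MRPL48 (-0.04 to 0.64) and MRPS28 (-0.52 to 0.23). Standard errors of members ran from 0.07 to 0.18 with a median of 0.09. Mean levels of tested members ran from 6.15 to 152 CPM, and their median of 43.6 CPM stood above the 22.5 CPM of all genes tested. The 3 shKRT15 libraries lay wholly above or wholly below the 3 shNC libraries for 37 members, 26 above and 11 below. Among all genes tested 54.0% were separated in this way, 26.9% above and 27.1% below. Of the 24 called members, 22 were separated, and MRPL23 and MRPL32 overlapped.

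Control libraries were not alike in these genes. Replicate 3 of shNC held the highest of the 3 control levels for 60 of 77 members (for 39.0% of all genes tested), and replicate 1 held the lowest for 56. Summed over the 78 members, levels were 3458, 3620 and 3974 CPM in shNC 1 to 3, and 3797, 3910 and 3901 CPM in shKRT15 1 to 3. The groups overlapped in this sum, with a ratio of means of 1.05 and a spread in shNC (SD 263.6, n = 3) that was larger than in shKRT15 (SD 62.4, n = 3). The summed level of the 84 genes of the cytosolic ribosome was likewise highest among controls in shNC replicate 3, at 65590, 69420 and 79540 CPM in shNC 1 to 3. Without shNC replicate 3, members called numbered 27 higher and 4 lower (35.1% and 5.19%, against 22.4% and 23.5% of all genes). Without shNC replicate 2 there were 11 higher and 5 lower (14.3% and 6.49%, against 17.4% and 18.4% of all genes). Without shKRT15 replicate 1 there were 13 higher and 2 lower (16.9% and 2.60%, against 17.4% and 18.0%). Scaling by total counts in place of TMM gave 25 higher and 2 lower, so that 92.6% of called members were higher instead of 70.8%. Over all genes the same scaling moved this share from 49.0% to 58.0%. What sets shNC replicate 3 apart was not tested.

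**Figure D2:**
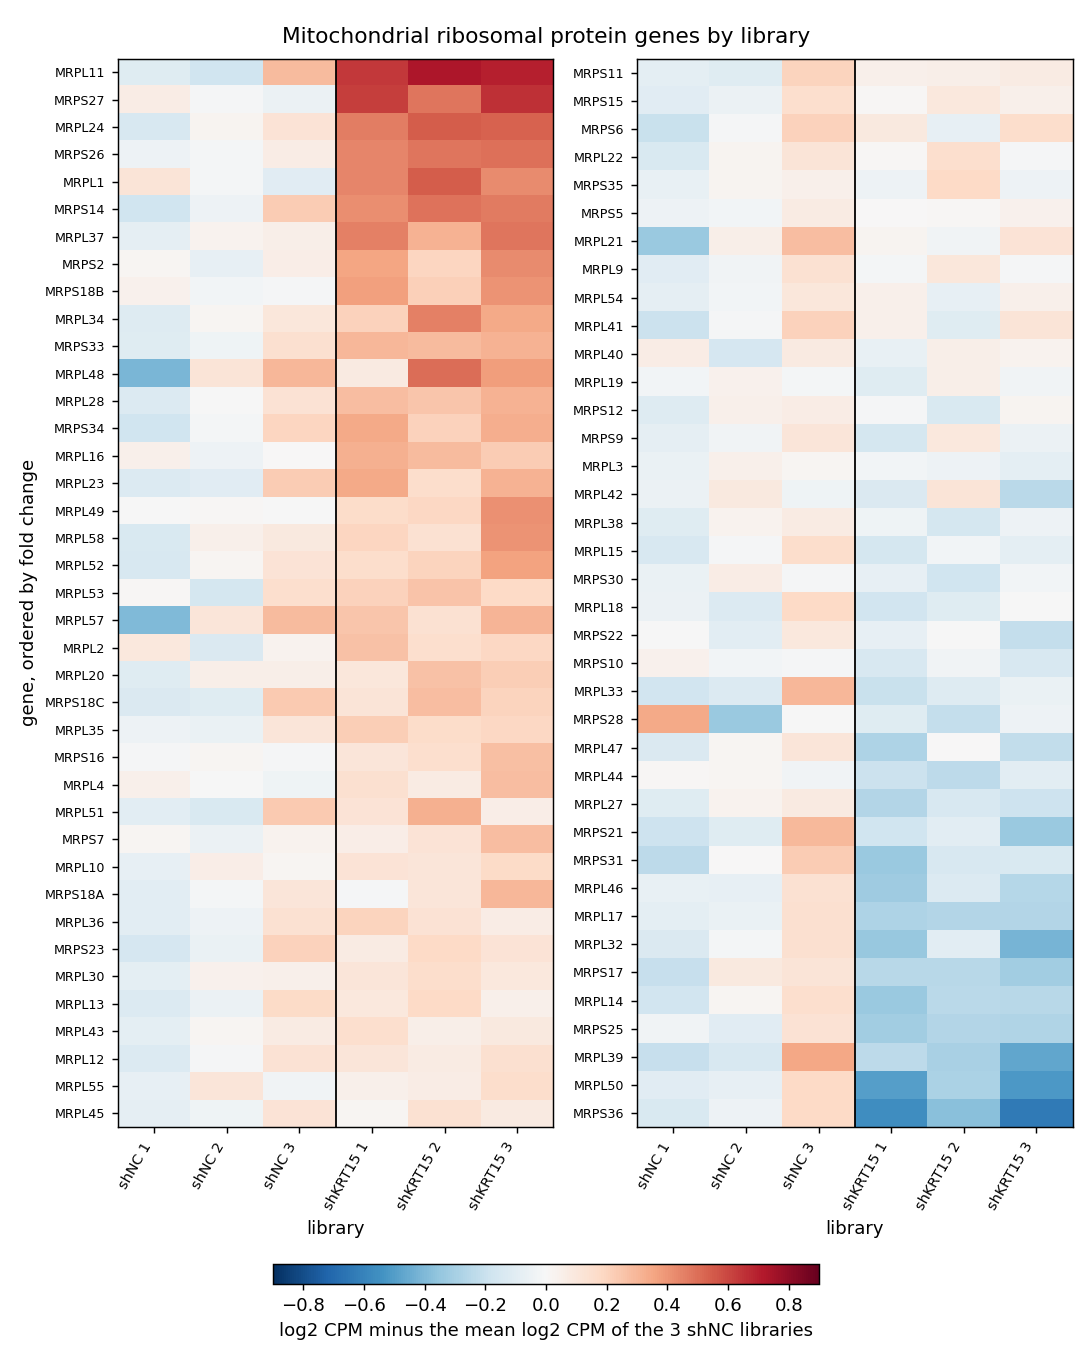
Level of each of the 77 tested members (rows, ordered by fold change and continued in the right panel) in each of the 6 libraries (columns), as log2 CPM minus the gene's mean log2 CPM in shNC, red above and blue below that mean. The shNC 3 column is mostly red, since this library holds the highest control level for 60 members, and rows near both ends, such as MRPL11 and MRPS36, show a step at the black line between shNC and shKRT15.

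Position and promoter sequence were properties that the choice of members did not use. The YY1 core, however, was chosen after values or sequences were seen, so its shares below are a description only. The members lie on 21 chromosomes. Promoter windows of 250 bases before and 50 bases from the first annotated transcript start were available for 70 of the 78 members (RefSeq, GRCh38.p14). The core AAGATGG of the binding motif of YY1, a zinc-finger transcription factor, was searched on both strands and occurred in 23 of the 70 windows (32.9%). It occurred in 7.5% of 10435 windows of tested coding genes and in 6.1% of all 27305 windows. In 16 members (22.9%) the core lay on the gene's own strand and wholly within the 50 bases from the start, compared with 3.7% of tested coding genes, and its first base was then at position 7 to 36 counted from the start as 1. A match is a description of the letters and not a site of binding. The core also holds the letters ATG, and whether these are the start codon of the protein was not tested. Stretches of 30 bases from 7 such windows follow, 3 from genes called higher (MRPS27, MRPL11, MRPS18B), 1 from a gene called lower (MRPL50) and 3 from genes that were not called, with the core in capitals to show its place and what follows it.
MRPS27 (chr5:72320203-72320232, minus strand): tacgctccAAGATGGctgcctccatagtgc
MRPL11 (chr11:66438803-66438832, minus strand): tctggcccAAGATGGtggcgcccagagctt
MRPS18B (chr6:30617855-30617884, plus strand): cgtacgtcAAGATGGcggcgtctgtattaa
MRPL50 (chr9:101398574-101398603, minus strand): tctcatcgAAGATGGcggcgcgatctgtgt
MRPS18A (chr6:43687761-43687790, minus strand): ggtttttgAAGATGGcggccctcaaggctc
MRPL46 (chr15:88467359-88467388, minus strand): gagaacgaAAGATGGcggcgcccgtaaggc
MRPL38 (chr17:75904855-75904884, minus strand): ggagggAAGATGGcggcgccctggtggcga

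Matches to the YY1 core were spread over the calls. The core was present in 5 of 16 windows of members called higher, 2 of 7 of those called lower and 15 of 46 of those not called. A longer form, the core followed by CGG, was present in 18.6% of member windows and in 2.9% of those of tested coding genes. The ETS-type motif CCGGAAG, the form bound by GABPA, was present in 41.4% of member windows and in 19.1% of tested coding windows. By call, it was present in 6 of 16 windows of members called higher, 0 of 7 of those called lower and 23 of 46 of those not called. The full palindrome of NRF1 (GCGCA followed by TGCGC), which activates nuclear genes of mitochondrial function, was present in 1 member window (1.4%, against 2.3% of tested coding windows), that of MRPL17. Its core TGCGCA was present in 14 of 70 member windows and in 13.4% of tested coding windows. Of the other motifs searched, the GC box GGGCGG was present in 61.4% (against 70.2%), CCAAT in 28.6% (against 36.6%) and the E-box CACGTG in 10.0% (against 10.2%). The motif of ZNF143, a zinc-finger activator at promoters (ACTACA and TCCC with any 2 bases between them), was present in 6 member windows (8.6%, against 4.1%). Like the YY1 core, it was chosen after values or sequences were seen. Both MRPL24, which was called higher, and MRPL50, which was called lower, carry it more than once. One of the matches of each, the match of MRPS26 (called higher) and the NRF1 match of MRPL17 (called lower) are shown in 60 bases upstream of the start, with the match in capitals.
MRPL24 (chr1:156741165-156741224, minus strand): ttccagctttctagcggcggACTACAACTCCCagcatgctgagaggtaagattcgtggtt
MRPL50 (chr9:101398759-101398818, minus strand): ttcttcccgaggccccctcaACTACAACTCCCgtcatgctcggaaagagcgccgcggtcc
MRPS26 (chr20:3045967-3046026, plus strand): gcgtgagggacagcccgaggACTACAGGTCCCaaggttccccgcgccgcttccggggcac
MRPL17 (chr11:6683384-6683443, minus strand): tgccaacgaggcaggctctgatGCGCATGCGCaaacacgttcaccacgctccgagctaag

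The small subunit was described first by its best supported changes. MRPS27, a pentatricopeptide-repeat protein of the small subunit, was at 60.3, 57.1 and 55.6 CPM in shNC and at 88.8, 80.6 and 90.8 CPM in shKRT15. All 3 shKRT15 libraries lay above all controls. Its log2 fold change was 0.59 ± 0.08 (SE; adjusted p = 1.13e-05), the smallest p of the members. The gene spans chr5:72219409-72320646 on the minus strand (GENCODE 29, GRCh38), and its 30 bases with the YY1 core are shown above. MRPS26, a protein acquired by the mitochondrial ribosome, stood at 22.8, 23.2 and 24.6 CPM in shNC and at 31.9, 32.8 and 33.2 CPM in shKRT15. Both groups were tight and far apart, with a log2 fold change of 0.47 ± 0.09 (adjusted p = 0.000406). MRPS14, a protein of the head of the subunit with a bacterial counterpart, was at 21.6, 23.7 and 28.7 CPM in shNC and at 32.8, 34.3 and 33.9 CPM in shKRT15. It rose by 0.45 ± 0.11 (adjusted p = 0.00229), with shNC replicate 3 the nearest control to the knockdown libraries.

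Bacterial S18 has several human mitochondrial relatives, of which each ribosome holds MRPS18B and MRPS18C in the small subunit and MRPS18A in the large one. MRPS18B was at 44.8, 42.9 and 43.4 CPM in shNC and at 56.5, 50.6 and 57.7 CPM in shKRT15, with groups apart and a rise of 0.33 ± 0.08 (adjusted p = 0.00392). MRPS18C was at 28.4, 28.8 and 36.5 CPM in shNC and at 33.6, 37.6 and 35.7 CPM in shKRT15, with shNC replicate 3 inside the knockdown range. It was not called (log2 fold change 0.19, 95% interval -0.03 to 0.41, adjusted p = 0.155). In 3 of 17 alternative fits MRPS18C was called (adjusted p from 0.00583 to 0.0097). These were the fit without shNC replicate 3 and both fits with the trend of GC content and length removed. MRPS18A was at 29.7, 31.4 and 34.3 CPM in shNC and at 31.5, 34.3 and 39.0 CPM in shKRT15, and these groups overlapped too (0.13, -0.08 to 0.35, adjusted p = 0.296). The 3 intervals overlap, and differences between the relatives were not tested. Exons of MRPS18C overlap the antisense gene ABRAXAS1 over 78.9% of their bases and those of MRPS18A overlap antisense RSPH9 over 56.9%, and without a stated strand setting reads of such partners cannot be told apart.

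MRPS2, a protein with a bacterial counterpart, was at 54.1, 50.7 and 55.8 CPM in shNC and at 68.5, 61.1 and 71.7 CPM in shKRT15 (0.33 ± 0.08, adjusted p = 0.00454). The other small-subunit members called higher were MRPS33 (0.30) and MRPS34 (0.28), both acquired by mitochondria, and both lost their call without shNC replicate 1 or shNC replicate 2, and MRPS34 also without shKRT15 replicate 1 or 3 (adjusted p from 0.0511 to 0.107). MRPS25, likewise without a bacterial counterpart, was the one small-subunit member called lower. It was at 29.6, 28.2 and 33.0 CPM in shNC and at 24.3, 25.2 and 25.0 CPM in shKRT15, with no overlap (-0.28 ± 0.10, adjusted p = 0.0217). MRPS25 was no longer called without shNC replicate 3, without shKRT15 replicate 1 or with total-count scaling (adjusted p from 0.0645 to 0.103). In all, 7 of 25 tested small-subunit members were called higher and 1 lower, with a median log2 fold change of 0.05. This was 32.0% called, against 45.0% of all genes (22.1% higher and 23.0% lower). Of the 10 without a bacterial counterpart, 5 were higher and 1 lower, with a median of 0.20. Of the 15 with one, 2 were called, both higher. Among the 10, the calls of MRPS33, MRPS34 and MRPS25 were each lost in some alternative fits. Those of MRPS27, MRPS26 and MRPS18B were kept in all 17. MRPS18B, a relative of bacterial S18, is counted among the 10. These counts rest on few genes, and the difference between them, or from the share of all genes, was not tested.

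**Figure D3:**
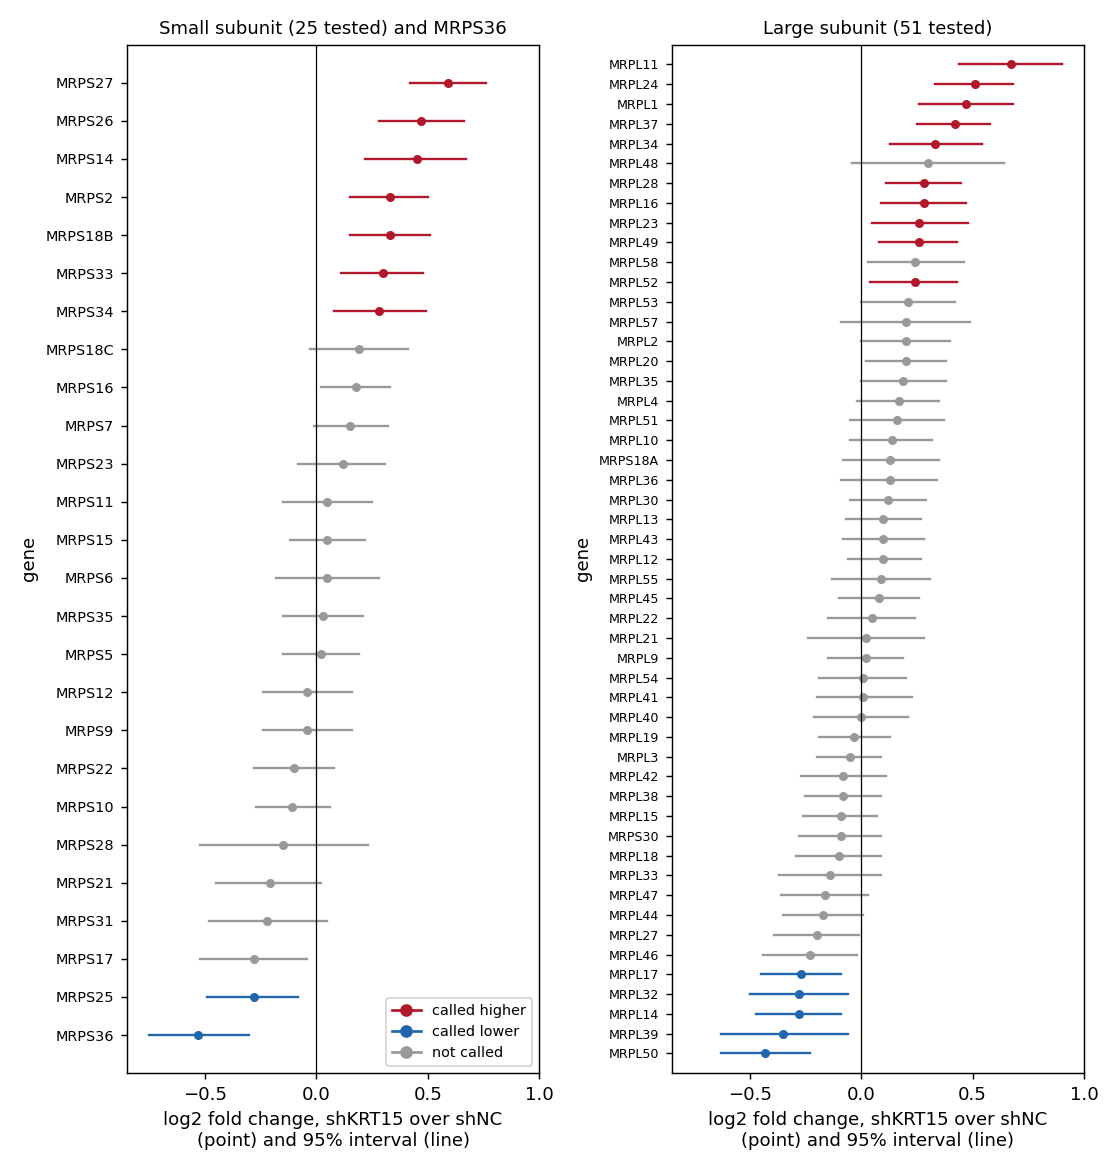
Log2 fold change, shKRT15 over shNC, of every tested member (point) with its 95% confidence interval (line), for the small subunit with MRPS36 (left) and the large subunit (right); red marks members called higher, blue lower and grey not called. Of the 77 points 53 are grey, and the values end at 0.67 for MRPL11 and at -0.53 for MRPS36.

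In the large subunit 10 of 51 members were called higher and 5 lower (29.4% called, against 45.0% of all genes). The median log2 fold change was 0.10. MRPL11, part of the stalk base where translation factors dock, showed the largest rise of all members. It was at 27.9, 26.6 and 36.7 CPM in shNC and at 46.8, 49.8 and 48.8 CPM in shKRT15. The shNC replicate 3 again stood above the other controls but below every knockdown library, and the log2 fold change was 0.67 ± 0.11 (adjusted p = 8.43e-05). MRPL24, a protein near the exit tunnel, was at 53.0, 59.7 and 63.7 CPM in shNC and at 80.5, 85.6 and 84.7 CPM in shKRT15. Groups were well apart, with a rise of 0.51 ± 0.08 (adjusted p = 8.89e-05). MRPL37, a protein without a bacterial counterpart, was at 67.9, 73.4 and 74.4 CPM in shNC and at 98.5, 89.4 and 100.3 CPM in shKRT15, a rise of 0.42 ± 0.08 (adjusted p = 0.000296). MRPL1 builds the mobile L1 stalk beside the exit site for spent tRNA. Its levels were 21.6, 19.7 and 18.6 CPM in shNC and 27.0, 29.1 and 26.8 CPM in shKRT15 (0.47 ± 0.10, adjusted p = 0.00088), and here shNC replicate 3 was the lowest control. MRPL28 was at 58.5, 63.6 and 69.8 CPM in shNC and at 77.4, 76.0 and 79.3 CPM in shKRT15 (0.28 ± 0.08, adjusted p = 0.0101), and without shNC replicate 1 its adjusted p was 0.0522. The other rises were MRPL34 (0.33), MRPL16 (0.28), MRPL23 (0.26), MRPL49 (0.26) and MRPL52 (0.24). Of the 10 rises in the large subunit, MRPL11, MRPL24, MRPL37, MRPL1 and MRPL34 were called in all 17 alternatives, while MRPL16, MRPL23, MRPL49 and MRPL52 each lost their call without shNC replicate 2 or another library (adjusted p from 0.0515 to 0.184). With the trend of GC content and length removed, these 4 were at 0.18, 0.15, 0.08 and 0.10 in that order and were not called (adjusted p from 0.061 to 0.427).

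Fewer members fell. MRPL50, a large-subunit protein without a bacterial counterpart, was at 61.0, 62.2 and 74.1 CPM in shNC and at 46.5, 53.8 and 45.8 CPM in shKRT15. All knockdown libraries lay below all controls, with a log2 fold change of -0.43 ± 0.10 (adjusted p = 0.00128). Its transcript has the lowest GC content of the members (35.0%), and after removal of each library's trend with GC content and length it was no longer called (adjusted p = 0.11). MRPL17, a protein at the exit tunnel, was at 55.8, 56.8 and 65.5 CPM in shNC and at 48.8, 49.4 and 49.4 CPM in shKRT15 (-0.27 ± 0.08, adjusted p = 0.015). MRPL14, at the face that meets the small subunit, was at 55.2, 63.0 and 69.0 CPM in shNC and at 49.4, 52.5 and 52.2 CPM in shKRT15 (-0.28 ± 0.09, adjusted p = 0.0167). MRPL39, a relative of threonyl-tRNA synthetase, was at 20.7, 21.6 and 30.4 CPM in shNC and at 20.3, 19.5 and 17.3 CPM in shKRT15 (-0.35 ± 0.13, adjusted p = 0.0439). Its first control and first knockdown library nearly met, and without shNC replicate 3 it was not called (-0.15, adjusted p = 0.274). MRPL32 (-0.28, adjusted p = 0.0339) overlapped between groups, with shKRT15 replicate 2 at 39.0 CPM above shNC replicate 1 at 38.0 CPM. MRPL17, MRPL14, MRPL39 and MRPL32 each lost their call without shKRT15 replicate 1 (adjusted p of 0.0739, 0.0986, 0.0668 and 0.151) and with total-count scaling. MRPL14 and MRPL32 also lost it without shNC replicate 2 (0.0623 and 0.0787), and MRPL32 and MRPL39 without shKRT15 replicate 3 (0.147 and 0.163).

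MRPS36 carried the largest fall of the members. It was at 33.0, 35.1 and 41.1 CPM in shNC and at 24.6, 27.9 and 23.3 CPM in shKRT15, with a log2 fold change of -0.53 ± 0.10 (adjusted p = 0.000573). No library of one group reached into the other. The gene keeps a ribosomal symbol, and its product is now known (as KGD4) for holding together the 2-oxoglutarate dehydrogenase complex of the citric acid cycle, so it is counted here with neither subunit. It was the one member called lower in the main fit and in all 17 alternatives.

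**Figure D4:**
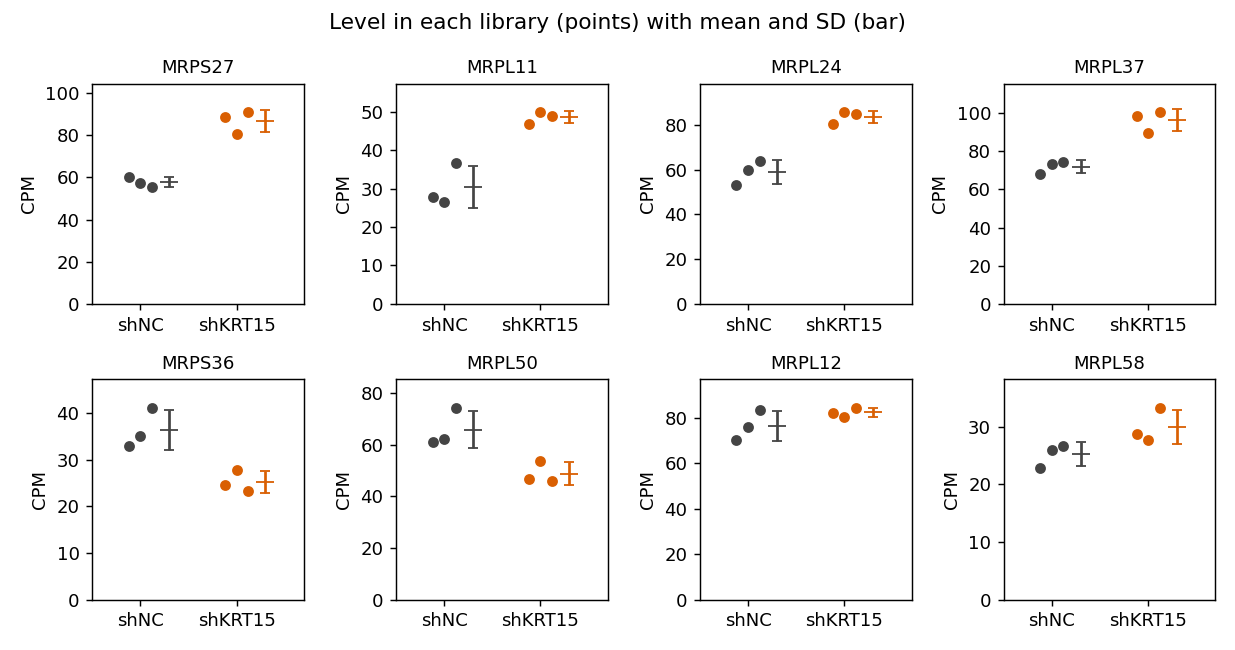
Levels in CPM (vertical axes, from 0) of 8 members in each shNC (grey) and shKRT15 (orange) library, with the group mean and SD (n = 3) beside the points. MRPS27, MRPL11, MRPL24 and MRPL37 are separated upward and MRPS36 and MRPL50 downward, MRPL12 overlaps, and MRPL58 is narrowly separated and was not called.

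Some members have a role beyond the core of the ribosome. MRPL12, the stalk protein that recruits translation factors and is also known to bind the mitochondrial RNA polymerase, was at 70.4, 76.1 and 83.6 CPM in shNC and at 82.4, 80.7 and 84.4 CPM in shKRT15. It was not called (0.10, 95% interval -0.06 to 0.27, adjusted p = 0.309), and 68.2% of its exon bases are shared with another annotated gene on the same strand. MRPL58, a peptidyl-tRNA hydrolase built into the large subunit that can release chains from stalled ribosomes, was at 22.9, 26.0 and 26.7 CPM in shNC and at 28.8, 27.6 and 33.2 CPM in shKRT15. Its groups did not overlap, yet it missed the threshold (0.24, 0.03 to 0.46, adjusted p = 0.0621). It was called in 4 of 17 alternatives.

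Members that sit together in the ribosome were grouped from textbook knowledge. Of 5 stalk proteins 1 was called higher, MRPL11, with a median of 0.14 over the 5. Of 6 proteins at the exit tunnel, MRPL23 and MRPL24 were higher and MRPL17 lower. Of 6 proteins of the central protuberance, the crown that faces the small subunit, 0 were called by edgeR, DESeq2 or limma-voom and 1 had an unadjusted p under 0.05. Over both subunits, 9 of 45 tested members with a bacterial counterpart were higher and 3 lower (26.7% called). Of the 31 without one, 8 were higher and 3 lower (35.5% called). Both shares were below the 45.0% of all genes. MRPS18A and MRPS18B, relatives of bacterial S18, are counted among the 31.

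Between genes, levels were compared per kilobase of transcript (the median length of a gene's GENCODE 29 coding transcripts). The highest were MRPL33 (134.4 CPM per kilobase), MRPL15 (132.1) and MRPL51 (130.9), all of the large subunit and none called. MRPL33 shows the control pattern plainly, at 56.9, 59.1 and 78.9 CPM in shNC and at 56.0, 59.2 and 61.7 CPM in shKRT15. The lowest tested were MRPS17 (9.12), MRPS28 (10.5) and MRPS31 (11.0), all of the small subunit. These values order the genes in this table only, since reads of copies and overlapping genes can enter or leave them. RefSeq names 106 pseudogenes for 42 of the members, up to 9 for MRPS21.

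MRPS24 was the 1 member that could not be tested. Its counts were 3, 0 and 1 in shNC and 4, 0 and 0 in shKRT15, a total of 8 reads, while the next lowest member, MRPS28, had 1418. Its RefSeq span, chr7:43866558-43869517 (GRCh38.p14), lies inside that of the readthrough gene URGCP-MRPS24 (chr7:43866558-43906596), and 77.0% of its exon bases are shared with that gene in GENCODE 29. The neighbour URGCP had 1635 to 2029 reads a library. A gene of the cytosolic ribosome, RPS10, also lies inside a readthrough gene, RPS10-NUDT3. It shares the higher-coordinate end of that span, whereas MRPS24 shares the lower-coordinate end of its own. RPS10 had 664 reads in all, while the median of 84 cytosolic ribosomal protein genes was 183090.5. Whether reads shared with the readthrough gene were dropped in counting was not tested, and the value for MRPS24 is not read as its expression.

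Transcript composition moved with the fold changes. Across the 77 tested members the Spearman correlation of log2 fold change with GC content was 0.34, and across 13723 tested genes with a value it was 0.25, both over genes that share the same 6 libraries. Median GC content was 55.5% in members called higher, 45.6% in those called lower and 48.8% in the rest. The correlation with transcript length was -0.13, and members were short, with a median of 1147 bases compared with 2480 over tested genes. With the trend removed, members called were 18 higher and 10 lower (23.4% and 13.0%), of which 18 were among the 24. Over all genes the same fit called 2723 higher and 4160 lower, so that 39.6% of called genes were higher instead of 49.0%. The part of composition in single changes was not tested further.

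Several members start next to another gene read in the opposite direction. Within 1000 bases 21 members had such a partner, in 21 pairs, of which 20 had both genes tested. In 0 pairs were both called in the same direction, and in 1 they were called in opposite directions. In 5 pairs only the member was called, in 6 only the partner and in 8 neither. Of all genes tested 22.1% were called higher and 23.0% lower, and whether partners move together was not tested. Some called members had a partner of the same sign that was not called. Examples are MRPS27 (0.59) with PTCD2 (0.29) and MRPL50 (-0.43) with ZNF189 (-0.12). The pairs named here were chosen after values were seen. MRPL27 (-0.20, not called) begins 6 bases from EME1, a gene of DNA repair that rose by 1.26 ± 0.18 (adjusted p = 2.56e-05). MRPL57 (0.20, not called) begins 43 bases from the mitotic gene SKA3, which rose by 1.11 ± 0.10 (adjusted p = 1.07e-07). MRPL52 (0.24, called higher) begins 59 bases from the amino acid transporter gene SLC7A7, which fell by 0.43 on the log2 scale. MRPL46 and MRPS11 face each other 34 bases apart, and neither was called (-0.23 and 0.05). Some of these missing calls depend on the fit. MRPL46 was called in 3 of 17 alternatives (adjusted p from 0.00693 to 0.0457), MRPL27 in 2 (0.00135 to 0.00214) and MRPL57 in 1 (0.0241).

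Other genes of mitochondrial translation were read in the same fit. Of 87 genes outside the members, 20 were called higher and 5 lower (28.7% called, against 45.0% of all genes). Among subunit genes with other symbols, PTCD3 was higher (0.22) and DAP3 lower (-0.21), of 5, and neither call was stable: PTCD3 was at 0.12 with the GC and length trend removed (adjusted p = 0.157) and DAP3 at -0.15 with total-count scaling (adjusted p = 0.0783). Of 24 assembly factors 5 were higher, among them the rRNA methyltransferases MRM1 (0.56) and MRM3 (0.52) and the helicase DDX28 (0.41), and FASTKD2 was lower (-0.31). Of 16 translation factors 2 were higher, the elongation factor TUFM (0.20) and OXA1L (0.23), which inserts new chains into the inner membrane. With the GC and length trend removed they were at 0.05 and 0.11 and were not called (adjusted p of 0.47 and 0.227).

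Mitochondrial tRNA synthetases charge the tRNAs that the ribosome uses, and 7 of 17 were higher and 1 lower (47.1% called, close to the 45.0% of all genes), with a median of 0.22. LARS2, for leucine, was at 32.0, 33.0 and 30.8 CPM in shNC and at 47.7, 41.7 and 49.5 CPM in shKRT15 (0.54 ± 0.09, adjusted p = 0.000134), and EARS2, for glutamate, was higher too (0.68 ± 0.11, adjusted p = 7.31e-05). YARS2 was lower (-0.30). Of 12 genes that copy or transcribe mitochondrial DNA, MGME1 was higher (0.25) and MTERF1 (-0.72) and TEFM (-0.56) were lower, while POLRMT, the RNA polymerase, was not called (0.10). Of the 13 mRNAs encoded in mitochondrial DNA, which the ribosome translates, 4 were called, all of them higher, and the median over the 13 was 0.17. They were CYTB (0.34), ND3 (0.25), ND4L (0.40) and ND6 (0.87). With the GC and length trend removed only 1 of the 13, ND3, was called, and ND4L was not called with the replicate block (0.38, adjusted p = 0.145). These mRNAs took 4.99%, 5.24% and 5.05% of counts in shNC and 5.71%, 4.86% and 6.54% in shKRT15, so the groups overlapped and the knockdown libraries were spread more widely. Of the context genes named, the tRNA synthetases EARS2 and LARS2, the factors DDX28, MRM3, MTERF1 and TEFM, and CYTB kept their call whichever library was left out. With the GC and length trend removed, DDX28 (0.26, adjusted p = 0.0513) and CYTB (0.34, adjusted p = 0.125) were not called. The calls of PTCD3, DAP3, MRM1, FASTKD2, TUFM, OXA1L, YARS2, MGME1, ND3, ND4L and ND6 each ended without at least 1 of the 6 libraries (adjusted p from 0.0507 to 0.28).

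**Figure D5:**
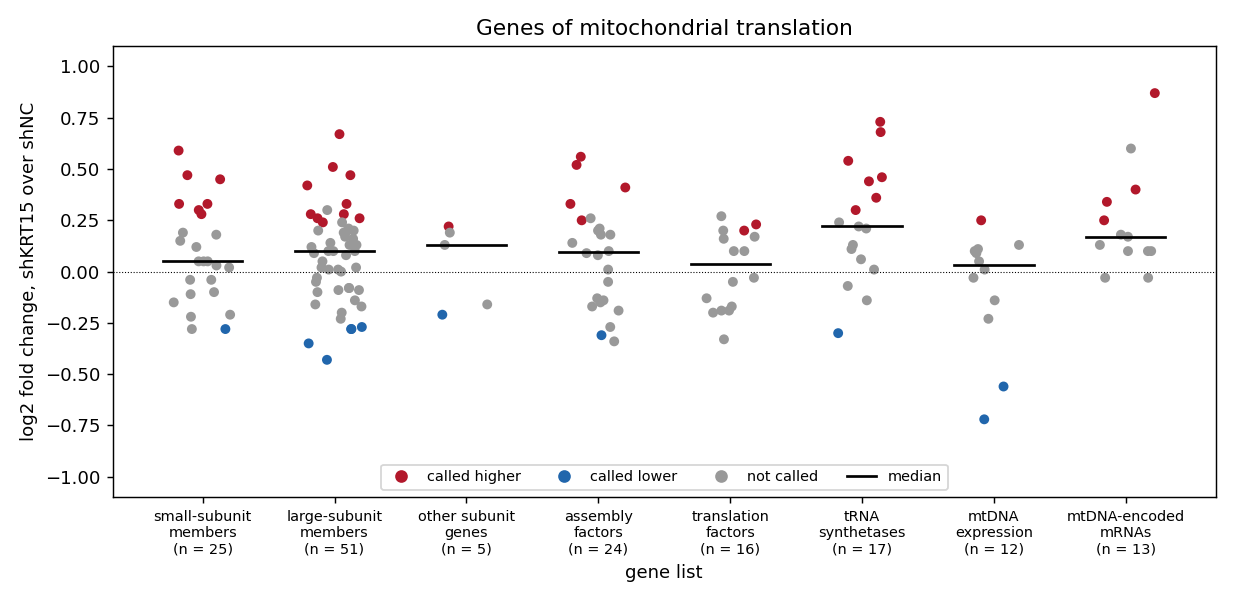
Log2 fold change, shKRT15 over shNC (vertical axis), of each tested gene (point) by list, with the list's median (bar); red marks genes called higher, blue lower and grey not called. Medians run from 0.03 for the translation factors to 0.22 for the tRNA synthetases, and the lowest point is MTERF1 at -0.72.

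Regulators of these genes did not move in 1 direction. NRF1 was at 11.3, 11.9 and 13.7 CPM in shNC and at 21.9, 18.0 and 16.7 CPM in shKRT15 (0.62 ± 0.13, adjusted p = 0.000679). YY1, whose core stands in the windows shown above, was at 99.7, 101.7 and 92.6 CPM in shNC and at 119.5, 116.8 and 117.8 CPM in shKRT15 (0.27 ± 0.07, adjusted p = 0.00502). SP1 rose by 0.56. GABPB1, the partner of GABPA, was lower (-0.47), as was ESRRA (-0.29), which lost its call without shNC replicate 2 (adjusted p = 0.09) or shKRT15 replicate 1 (adjusted p = 0.0628). GABPA (-0.01), TFAM (-0.14) and MYC (-0.10) were not called. YY1 lost its call when the trend with GC content and length was removed (adjusted p = 0.154).

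The ribosome of the cytosol gave a nearby comparison. Of 81 tested genes for its proteins 11 were called higher and 3 lower (17.3% called), with a median log2 fold change of 0.02. The mitochondrial set had 31.2% called and a median of 0.08, and both stood below the 45.0% called among all genes. No test of the difference between the sets was made.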

How the data were processed

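RNA sequencing of 6 libraries (3 shNC, 3 shKRT15) was used as raw counts per gene, deposited by the authors without normalization. The build was GRCh38, per the submitters' processing notes, while aligner, counter, annotation and strand setting were not given in the sources used here. Library columns were matched to samples by the labels. Library pairs of 1 group differed by a chi-square per degree of freedom of 6.05 to 29.04, so all 6 entered as separate samples.

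Counts were tested with edgeR 4.0.16 in R 4.3.3 (genes kept by filterByExpr at its settings of 10 counts and 15 in total, TMM scaling, robust quasi-likelihood fit with the group as its only term), with Benjamini-Hochberg adjustment over 14356 genes. Calls required an adjusted p under 0.05. The fit was tested on simulated counts first. Alternatives used DESeq2 1.42.0, limma 3.58.1 (voom), other scalings and filters, protein-coding genes alone, a term for the replicate number, a fit without the trend of GC content and length (GENCODE 29, available for 95.6% of tested genes), and each library left out in turn. Mitochondrially encoded genes were matched by symbols without the MT- prefix.

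The members and all gene lists were chosen with earlier results of these data known. The naming rule took up to 10 called members with the smallest p-values in each direction whose groups did not overlap, the 3 highest and 3 lowest by level, MRPS18A, MRPS18B, MRPS18C, MRPL12 and MRPL58, members whose call changed under an alternative, and, per direction of each context list, the 3 genes with the smallest p-values. One gene that this rule took is not reported here. The groups within the ribosome, the YY1 core, the ZNF143 motif, the partner genes and MRPL32, MRPL33, MRPL46 and RPS10 were chosen after values or sequences were seen. A planned test of the summed level is not given, since the members were not chosen independently of the data.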

Additional observations from a re-analysis of the deposited data

How the results depend on the processing

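Of the 24 called members, 11 kept their call in all 17 alternatives (10 higher, and MRPS36 lower), 13 lost it in at least 1, and 0 changed direction. Of the 53 others, 22 were called in at least 1 alternative. Leaving out each library in turn gave 11 to 27 members higher (17 with all libraries) and 2 to 9 lower (7 with all libraries), or 14.3% to 35.1% and 2.60% to 11.7% of members. Over all genes the same fits called 17.4% to 22.4% higher and 18.0% to 23.5% lower. It gave 8 to 21 large-subunit members called (15 with all libraries) and 14 to 29 of the other genes of mitochondrial translation (25 with all libraries). With total-count scaling 2 members were called lower (2.60%, against 18.9% of all genes). The cause of these shifts was not tested, beyond the smaller number of samples in each fit that left one out.

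Samples were not paired by replicate number in the main fit. Same-numbered libraries correlated in their deviations from the group means by 0.025, 0.010 and 0.099 over 12421 genes. Differently numbered libraries of the 2 groups correlated by -0.071 to 0.065. With the replicate block 19 members were called higher and 7 lower (24.7% and 9.09%, against 23.0% and 23.9% of all genes). With the block and the GC and length trend removed together, 19 were higher and 11 lower. These were 24.7% and 14.3% of members, against 18.8% and 28.4% of all genes, and the cause was not tested. The block alone ended no member's call, and it ended that of ND4L.

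Too few reads (8 in all) were counted for MRPS24 to test it, for which the cause was not tested. Among tested members MRPS28 had the fewest, with 1418.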
